A study of Mus musculus with 8 samples.

Results

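Mouse embryonic stem cells (ESCs) that lived on an RNA-binding mutant of WDR5 were compared with ESCs that lived on the wild-type protein, both with the transgene induced. The arrays were chosen by their titles, 2 for the F266A mutant with doxycycline (F266A +dox) and 2 for the wild type with doxycycline (WT +dox), which makes 4 of the 8 arrays of the series. All cells were of the V6.5 line, carried an shRNA against the endogenous mouse Wdr5 mRNA and a lentiviral, doxycycline-inducible human WDR5 transgene, were sorted for GFP and were grown on gelatin in full ESC medium. Both groups received doxycycline at 2 µg per mL, and the only labelled difference is the transgene, WT or F266A. The other 4 arrays hold the same lines without doxycycline (WT -dox and F266A -dox, 2 each) and served to set the spread and to show the same pair of lines uninduced. Each transgene stands for a single infected line, no group has its own Wdr5 mRNA untouched, and the study describes less F266A than WT protein, so sequence, amount of protein and line cannot be told apart here. Values below are log2 levels of 11940 genes on Affymetrix mouse arrays, and differences are F266A +dox minus WT +dox ± SE (n = 2 arrays per group), where a difference of 1 is a 2-fold change. A gene was called at a limma adjusted p under 0.05. The 2 arrays of a group are described as biological duplicates, and arrays give no read counts, so that their number and their spread set the precision: the median SE of a difference was 0.0802.

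WDR5 is a WD-repeat adaptor of the MLL and SET1 complexes, which methylate histone H3 at lysine 4 at the promoters of active genes. F266 lies in a cleft of the WDR5 surface that contacts RNA and the partner subunit RbBP5. The study reports that F266A loses binding of RNAs, long noncoding RNAs and mRNAs among them. In ESCs, WDR5 acts with pluripotency factors such as OCT4, the product of Pou5f1, and ESCs can shift between a naive state, like the early epiblast, and a primed state, like the epiblast after implantation.

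For 4 of the gene groups described below, stretches of promoters of called members are shown with the motif that each group is known for. Members that were not called or moved the other way are counted with their groups below. Sequences are from RefSeq (mouse assembly GRCm38.p6), run 5' to 3' along the gene's strand, and span 100 bases out of a window from 250 bases before to 50 bases after the annotated start. Capitals mark the motif on either strand.
Interferon-inducible GTPases, with the interferon response element (GAAA, any 2 bases, GAAA):
Gbp2, chr3:142620559-142620658 (plus strand): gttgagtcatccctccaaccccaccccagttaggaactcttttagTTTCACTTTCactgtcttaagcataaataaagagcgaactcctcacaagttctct
Gbp2b, chr3:142594665-142594764 (plus strand): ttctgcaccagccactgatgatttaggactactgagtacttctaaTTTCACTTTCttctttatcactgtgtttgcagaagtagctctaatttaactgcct
Irgm1, chr11:48871396-48871495 (minus strand): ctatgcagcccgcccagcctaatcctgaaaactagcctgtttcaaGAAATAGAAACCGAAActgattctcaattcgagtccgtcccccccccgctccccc
Stress genes lower in F266A +dox, with the C/EBP-ATF composite element TGATGNAA that ATF4 binds:
Nupr1, chr7:126625526-126625625 (minus strand): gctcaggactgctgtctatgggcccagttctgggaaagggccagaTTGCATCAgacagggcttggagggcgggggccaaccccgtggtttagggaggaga
Jdp2, chr12:85599338-85599437 (plus strand): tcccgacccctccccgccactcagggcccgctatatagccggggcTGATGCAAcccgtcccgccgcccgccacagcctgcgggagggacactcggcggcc
Chac1, chr2:119351004-119351103 (plus strand): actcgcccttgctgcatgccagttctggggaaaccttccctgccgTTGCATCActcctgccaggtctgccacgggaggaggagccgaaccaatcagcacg
Genes of the meiotic chromosome axis, with TCCCGC, the core of E2F6 sites:
Sycp3, chr10:88459395-88459494 (plus strand): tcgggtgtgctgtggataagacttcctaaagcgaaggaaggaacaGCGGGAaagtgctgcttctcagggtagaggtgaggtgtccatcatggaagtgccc
Stag3, chr5:138280459-138280558 (plus strand): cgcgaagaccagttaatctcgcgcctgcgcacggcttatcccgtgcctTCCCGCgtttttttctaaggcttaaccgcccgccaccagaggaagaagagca
Contractile genes, with the CArG box bound by serum response factor:
Acta1, chr8:123894794-123894893 (minus strand): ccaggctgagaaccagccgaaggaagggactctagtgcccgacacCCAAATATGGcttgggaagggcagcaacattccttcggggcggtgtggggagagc
Cnn2, chr10:79988499-79988598 (plus strand): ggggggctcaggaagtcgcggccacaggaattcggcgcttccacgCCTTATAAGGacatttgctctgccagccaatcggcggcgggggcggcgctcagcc

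Of the 11940 genes, 3384 were called (28.3%), 1896 higher (15.9%) and 1488 lower (12.5%) in F266A +dox. Far fewer changed by 2-fold or more: 179 were higher (1.5%) and 55 lower (0.461%). The median difference over all genes was 0.003 and the median absolute difference 0.14. Large changes were mostly rises, with 56 called genes up by at least 1.5 and 8 down by as much. Of 1446 genes with a mean level over 10, 10 were at least 2-fold higher. Without F266A +dox replicate 1 the count of called genes was 1932, and without WT +dox replicate 1 it was 2230, whereas the number at 2-fold or more was 220 to 260 over the 8 fits that each left out 1 array. In 5061 genes the value is an average of several probe sets. The arrays of the 2 groups did not overlap in 65.6% of all genes (4075 higher and 3762 lower in F266A +dox), so that an absence of overlap, as given for single genes below, is the usual case and does not set a gene apart. Counts of 1 or 2 genes in a list, given below, rest on single calls, several of which were lost when 1 array was left out. List counts stand against the 15.9% higher and 12.5% lower over all genes, and counts near these shares do not set a list apart. Among 2-fold changes from several probe sets, all probe sets of a gene had the same sign in 69 of 70 genes that rose and in 20 of 20 that fell. These genes were picked on the average of the same probe sets, which by itself favours such agreement.

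**Figure D1:**
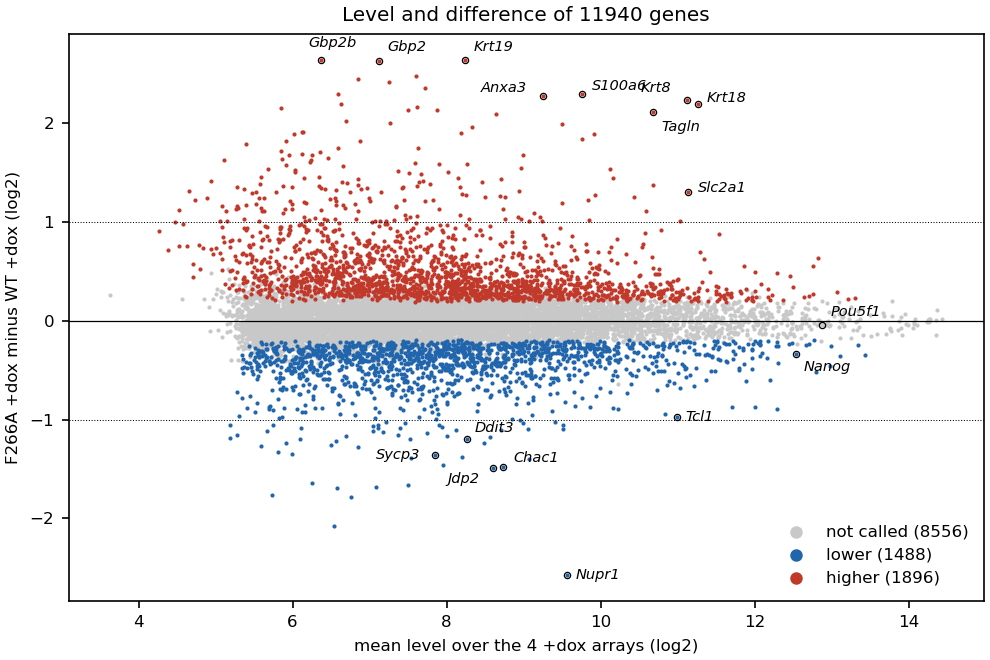
Difference between F266A +dox and WT +dox (vertical, log2) against the mean level over the 4 +dox arrays (horizontal, log2) for each of the 11940 genes, with dotted lines at a 2-fold change. Genes called higher (1896) reach 2.64 and genes called lower (1488) reach -2.57, and Krt8, Krt18 and Tagln combine a high level with a large rise.

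The ESC label held on all 4 arrays. All 12 of the ESC markers checked exceeded the expression minimum (50 on the linear scale, 5.64 in log2) on each of them, and Pou5f1 read 12.92 and 12.87 in WT +dox and 12.87 and 12.84 in F266A +dox. Duplicate arrays correlated at r = 0.9976 and 0.9977 across probe sets, and arrays of the 2 groups at 0.9915 to 0.9927. A signal that does move with the groups is that of the 18S ribosomal RNA control, 11.42 and 10.99 in WT +dox against 10.61 and 10.35 in F266A +dox, and the 3' minus 5' difference of Actb, a sign of RNA integrity, was 0.69 and 0.73 against 0.53 and 0.62. Their part in the results was not tested. Genes of chromosomes 8, 6 and X were called higher more often (26.7%, 23.8% and 21.8%) than the 15.9% over all genes, with median differences of 0.089, 0.063 and 0.03.

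Wdr5 itself was measured by a pair of probe sets against the mouse mRNA. The brighter one read 9.68 and 9.70 in WT +dox and 9.83 and 9.77 in F266A +dox (difference 0.11 ± 0.07, adjusted p = 0.302), and the dimmer one read 7.02 and 6.94 against 7.34 and 7.36 (0.37 ± 0.09, adjusted p = 0.0159). Averaged, Wdr5 was higher by 0.24 ± 0.07 in F266A +dox (adjusted p = 0.0249), a call that depended on the dimmer probe set and ended when any 1 of the 4 arrays was left out. Both probe sets were brighter in the uninduced lines, at 10.62, 10.57, 10.30 and 10.39 for the first. How far these probe sets see the human transgene is not known from the files.

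Of 21 measured genes of WDR5 and the H3K4 methyltransferase complexes, Wdr5 included, 3 were called higher and the other 18 were not called, with a median of 0.01. Without F266A +dox replicate 1, and also without F266A +dox replicate 2, 1 was called higher. The catalytic subunit genes Kmt2a (0.21 ± 0.08, adjusted p = 0.0945), Kmt2b (0.01 ± 0.06), Kmt2d (0.01 ± 0.08) and Setd1a (0.09 ± 0.08) were among those not called. Rbbp5, which encodes the subunit that shares the WDR5 cleft with RNA, read 10.41 and 10.43 in WT +dox and 10.40 and 10.40 in F266A +dox (-0.02 ± 0.06). The largest difference was that of Setd1b, a catalytic subunit of a SET1 complex, with 7.11 and 7.45 in WT +dox and 8.23 and 8.20 in F266A +dox (0.94 ± 0.11, adjusted p = 0.000277). Its arrays did not overlap, as in 65.6% of all genes. Tasp1, the protease that cleaves MLL, was higher by 0.36 ± 0.10 (adjusted p = 0.0235), a call lost without WT +dox replicate 1 or without either F266A +dox array. With its brightest probe set the Tasp1 call was lost as well. Among 5 H3K4 demethylase genes the largest difference was that of Kdm1a (0.19 ± 0.07, adjusted p = 0.0692), which was not called. Of 28 Polycomb subunits 4 were called higher and 2 lower, neither count above the share over all genes (15.9% higher and 12.5% lower). Mtf2 was lowest at -0.35 ± 0.07 and Yaf2 highest at 0.52 ± 0.08. The count higher fell when WT +dox replicate 1 or F266A +dox replicate 1 was left out.

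The de novo DNA methyltransferase genes, by contrast, were all called higher. Of 12 genes of DNA methylation 5 were higher and 3 lower, and the 3 lower calls were lost without F266A +dox replicate 1 or without F266A +dox replicate 2. Dnmt3b read 9.82 and 9.80 in WT +dox and 11.11 and 11.01 in F266A +dox (1.25 ± 0.09, adjusted p = 1.73e-05), Dnmt3a was higher by 0.72 ± 0.10 and their cofactor Dnmt3l by 0.69 ± 0.08, while Tet1, which oxidises methylcytosine (-0.33 ± 0.08), and the maintenance factor gene Uhrf1 (-0.23 ± 0.07) were lower. The Uhrf1 call was also lost without WT +dox replicate 1 or without either WT -dox array, and the Tet1 call without WT +dox replicate 2. With the brightest probe set of each gene, the Tet1 and Uhrf1 calls were lost too. The Uhrf1 call was lost as well with no minimum and in the fit restricted to the compared groups. Without doxycycline Dnmt3a (-0.13) and Dnmt3l (-0.44) did not stand higher in F266A. Dnmt3a, Dnmt3b and Dnmt3l were all called for the interaction described below.

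Naive factors were mostly lower and primed factors mostly higher. Among 18 naive factors 13 were called lower and 2 higher, with a median of -0.36, and among 18 primed factors 14 were called higher and the other 4 were not called, with a median of 0.67. Of the 12 ESC identity genes 3 were called, Nanog (-0.34 ± 0.07, adjusted p = 0.00833) and Fbxo15 (-0.34 ± 0.07) lower and Dppa2 higher (0.33 ± 0.07), and the list's median was -0.05. Nanog belongs to both the naive list and the ESC identity list, and its call was lost without F266A +dox replicate 1.

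Tcl1, a coactivator of AKT in ESCs, fell most among naive factors. It read 11.50 and 11.44 in WT +dox and 10.50 and 10.50 in F266A +dox (-0.97 ± 0.07, adjusted p = 1.73e-05). Nr5a2, a nuclear receptor gene, went from 9.04 and 9.22 to 8.54 and 8.47 (-0.62 ± 0.10, adjusted p = 0.00132). In both genes every F266A array lay under every WT array, and 65.6% of all genes had such a separation in either direction. The falls of Tfap2c (-0.52 ± 0.07), Sox15 (-0.52 ± 0.09), Tfcp2l1 (-0.51 ± 0.08), Mybl2 (-0.51 ± 0.08), Esrrb (-0.41 ± 0.06), Tbx3 (-0.39 ± 0.08) and Klf4 (-0.38 ± 0.07) were smaller than 2-fold, as were those of Prdm14 (-0.29 ± 0.06) and Nr0b1 (-0.25 ± 0.07). The call of Nr0b1 was lost without any 1 of the 4 arrays and that of Prdm14 without WT +dox replicate 2 or without F266A +dox replicate 1. Gbx2, a homeobox gene, and Dppa3 (0.30 ± 0.08) were the 2 naive members called higher, Gbx2 with 6.09 and 6.14 in WT +dox and 7.31 and 7.20 in F266A +dox (1.14 ± 0.10). Without WT +dox replicate 2, or without either F266A +dox array, the Dppa3 call was lost.

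Pou3f1, the POU factor OCT6 of the primed epiblast, led the primed list. It read 6.98 and 6.88 in WT +dox and 8.47 and 8.36 in F266A +dox (1.48 ± 0.09, adjusted p = 9.26e-06). The zinc-finger gene Zic5 went from 6.77 and 7.16 to 8.01 and 7.97 (1.02 ± 0.14), and Sox11, an SRY-box factor, from 7.07 and 7.27 to 7.96 and 7.82 (0.72 ± 0.09). These groups of arrays did not overlap, like those of 65.6% of all genes. Otx2, a homeobox gene that drives exit from the naive state, was higher by 0.47 ± 0.08. The growth factor genes Fgf5 (1.11 ± 0.23) and Fgf8 (1.14 ± 0.21) and the zinc-finger genes Zic2 (0.93 ± 0.12) and Sall2 (0.86 ± 0.14) were called as well, but each had a group mean under the expression minimum, and Fgf5 had both, so the size of those rises rests on signals not shown to exceed background. The Fgf5 call was lost without F266A +dox replicate 1. Of the lineage markers that passed the minimum, 2 of 10 primitive endoderm genes were called higher, 2 of 9 trophoblast and 1 of 6 mesoderm and streak genes lower, and of 9 neural progenitor genes 2 were higher and 2 lower. Over all genes 15.9% were higher and 12.5% lower, and counts this small do not set these lists apart.

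Genes of the contractile cytoskeleton and of mechanical signalling were higher in large number. Of 29 measured actin cytoskeleton genes 22 were called higher and 2 lower (median 0.56), of 15 targets of the YAP and TEAD factors 13 were called higher and 2 were not called (median 0.92), and of 13 caveolae and annexin genes 8 were higher and 1 lower (median 0.77), a lower call that was lost without WT +dox replicate 1 or without F266A +dox replicate 1. The counts higher were 17, 12 and 8 without F266A +dox replicate 1. The same lists had medians of 0.62, 0.92 and 0.90 in F266A -dox minus WT -dox, on other arrays of the same lines. The lists were chosen with earlier results of these data known, so these medians are not an independent test.

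Tagln, the smooth-muscle protein transgelin, read 9.67 and 9.57 in WT +dox and 11.80 and 11.66 in F266A +dox, a 4.31-fold rise (2.11 ± 0.11, adjusted p = 5.06e-06). Cnn1, which encodes calponin, read 5.62 and 5.45 against 7.77 and 7.69 (2.19 ± 0.08), the WT mean being under the expression minimum. The alpha-actin gene of skeletal muscle, Acta1, went from 8.18 and 8.13 to 9.93 and 9.73 (1.67 ± 0.13). That of smooth muscle, Acta2, went from 9.24 and 9.64 to 10.84 and 10.92 (1.44 ± 0.24). None of these groups of arrays overlapped, which held for 65.6% of all genes. The myosin light chain gene Myl9 (1.58 ± 0.10), the tropomyosin genes Tpm1 (1.27 ± 0.10), Tpm2 (1.05 ± 0.10) and Tpm4 (1.00 ± 0.09) and the caldesmon gene Cald1 (1.02 ± 0.11) also rose by 2-fold or more. The cytoplasmic actins moved by far less, Actb by 0.21 ± 0.07 (adjusted p = 0.0396) and Actg1 by 0.19 ± 0.07 (adjusted p = 0.0589), and Lima1, an actin-bundling protein gene, fell (-0.63 ± 0.08). The Actb call was lost without any 1 of 6 arrays. Srf, the gene of serum response factor, was higher by 0.40 ± 0.09, a call lost without WT +dox replicate 2 or without F266A +dox replicate 1. A CArG box stood in the promoter window of 8 of the 27 actin cytoskeleton genes with a window in the table, Acta1 and Cnn2 shown above among them, against 1.81% of all 27025 genes. Of these 8, 6 were called higher, Lima1 lower and Actg1 neither. Of the 12 YAP and TEAD targets with a window, none held these letters.

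Ccn2, a secreted matricellular protein and classical YAP target, read 9.28 and 9.43 in WT +dox and 10.85 and 10.92 in F266A +dox (1.53 ± 0.09, adjusted p = 6.19e-06). Its relative Ccn1 went from 6.43 and 6.57 to 7.88 and 7.71 (1.30 ± 0.09), and thrombospondin 1, Thbs1, was higher by 1.39 ± 0.08. The F266A arrays were the higher ones throughout, a separation that 65.6% of all genes had in either direction. Amot, an angiomotin that binds YAP and lies outside the list, read 6.45 and 6.65 against 8.91 and 8.88 (2.35 ± 0.10), and its relatives Amotl1 (0.84 ± 0.07) and Amotl2 (0.67 ± 0.07) were higher as well. The uncalled members were Arhgef17 (0.13 ± 0.09) and Wwc1 (-0.06 ± 0.07). Among calcium-dependent membrane-binding proteins, Anxa3 went from 8.04 and 8.20 to 10.40 and 10.38 (2.27 ± 0.12) and Anxa1 from 8.88 and 9.07 to 10.82 and 10.88 (1.88 ± 0.14), while Anxa7 was lower (-0.28 ± 0.07). The Anxa7 call was also lost with its brightest probe set. S100a6, a small calcium-binding partner of annexins, read 8.54 and 8.68 against 10.83 and 10.97 (2.29 ± 0.11). These proteins are also made by fibroblasts, of whose 18 markers 3 exceeded the minimum on each of the 4 arrays. The summed linear level of these markers was 935.2 and 855.1 in WT +dox and 911.8 and 878.7 in F266A +dox, and Pdgfra, Col3a1, Dcn and Lum were under the minimum on all 4. Of the 5 that passed the minimum in the fit, 2 were called higher, Twist1 (0.75 ± 0.10, both means under the minimum) and the collagen gene Col5a1 (0.67 ± 0.09), and 1 was called lower, Fbln1 (-0.22 ± 0.06), whose call was lost without any 1 of the 4 arrays. Their part in the rises was not tested.

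Keratins of simple epithelia were higher as well. Of 9 measured keratin genes 5 were called higher and 2 lower, 3 and 2 without F266A +dox replicate 1. Krt8 read 9.97 and 10.03 in WT +dox and 12.23 and 12.24 in F266A +dox, a 4.68-fold rise (2.23 ± 0.09, adjusted p = 1.23e-06). Its partner Krt18 read 10.10 and 10.25 against 12.41 and 12.31 (2.19 ± 0.09), and Krt19 read 6.93 and 6.90 against 9.60 and 9.51 (2.64 ± 0.13). In all 3 genes the groups lay over 2 log2 units apart. Krt42 (-0.46 ± 0.07) and Krt17 (-0.56 ± 0.12) were lower. The Krt42 call was lost with its brightest probe set (-0.27, adjusted p = 0.058), and the Krt17 call without WT +dox replicate 1 or without F266A +dox replicate 2. Of 12 other intermediate filament genes 7 were higher and 5 were not called (median 0.59), with vimentin, Vim, at 7.68 and 7.84 against 9.27 and 9.05 (1.40 ± 0.10) and the neurofilament gene Nefl at 8.14 and 8.27 against 9.87 and 9.61 (1.54 ± 0.11). Among 15 tight junction genes 9 were called higher and 2 lower, and 5 were higher without WT +dox replicate 1 or without F266A +dox replicate 1. Marveld3, a membrane protein of these junctions, was highest at 1.30 ± 0.09. Of 17 cadherin and desmosome genes 7 were higher and 1 lower. The E-cadherin gene Cdh1 moved by 0.26 ± 0.07, a call lost without WT +dox replicate 1 or without either F266A +dox array, and the desmosomal plaque gene Pkp2 by 1.22 ± 0.08. Keratins 8, 18 and 19 are also made by trophoblast. The 12 measured trophoblast markers summed to 930.9 and 935.1 in WT +dox and 960.3 and 946.8 in F266A +dox. Of these 12, 7 and 7 exceeded the minimum in WT +dox and 7 and 8 in F266A +dox. The part of such cells in the rises was not tested.

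**Figure D2:**
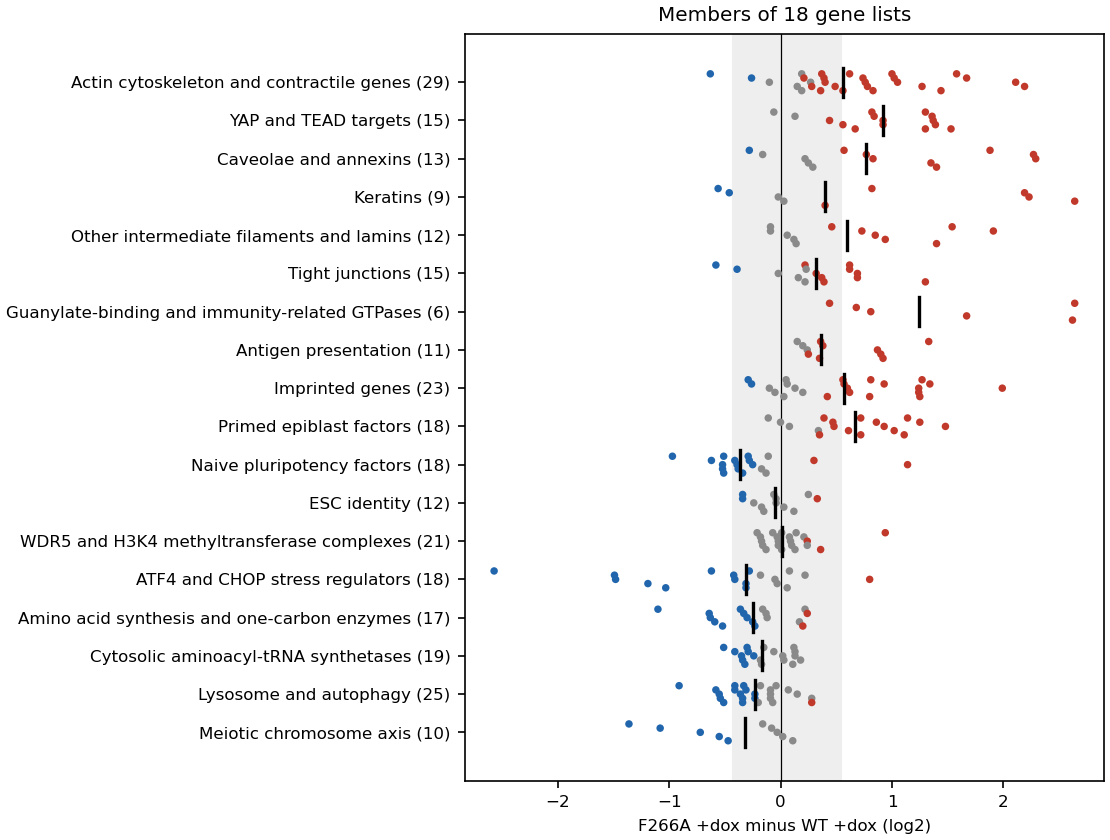
Log2 difference between F266A +dox and WT +dox for each measured member (dot) of 18 gene lists, with the number of members in brackets. Red dots were called higher, blue dots lower and grey dots neither, the black bar is the median and the grey band spans percentiles 5 to 95 of all genes (-0.42 to 0.54). The median is 0.92 for YAP and TEAD targets and 0.01 for genes of H3K4 methylation, and the band describes single genes, not medians.

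Interferon-inducible GTPases, which act against intracellular pathogens, held 2 of the 12 highest differences. Of the 16 guanylate-binding and immunity-related GTPases listed, 11 were on the array under 1 symbol and 6 passed the minimum, and all 6 of those were called higher, with a median of 1.24 (5 without WT +dox replicate 1 or without F266A +dox replicate 1). Passing the minimum in 1 array is easier for a gene that is high in one line, so the share of 6 in 6 is not a share of the family. Gbp2 read 5.76 and 5.87 in WT +dox and 8.47 and 8.40 in F266A +dox (2.62 ± 0.13, adjusted p = 4.94e-06). Gbp2b read 5.19 and 4.90 against 7.76 and 7.61 (2.64 ± 0.17), and Irgm1 read 5.21 and 5.03 against 6.80 and 6.78 (1.67 ± 0.14). In these genes the WT arrays were near or under the minimum and the F266A arrays well above it. Gbp7 (0.81 ± 0.10) and Gbp3 (0.68 ± 0.13), both with a WT mean under the minimum, and Igtp (0.44 ± 0.11) moved less. The genes lie in clusters on chromosomes 3 and 11, and members of the family are similar in sequence, so that probe sets may share signal. The element, GAAA, any 2 bases and GAAA, stood in the promoter window of all 6, against 3.99% of the 27025 genes. Members that did not pass the minimum were not scored, so this too is not a share of the family.

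Antigen presentation genes, which interferons also induce, were higher by less. Of 11 genes 8 were called higher and 3 were not called (median 0.36), and 5 were higher without WT +dox replicate 1 or without F266A +dox replicate 2. The immunoproteasome subunit gene Psmb8 went from 6.02 and 6.16 to 6.99 and 7.03 (0.92 ± 0.11) and its companion Psmb10 from 7.63 and 7.66 to 8.49 and 8.53 (0.87 ± 0.07). The peptide transporter gene Tap1 went from 6.73 and 7.07 to 7.85 and 7.76 (0.90 ± 0.14). In each of them both F266A arrays were the higher ones, while 65.6% of all genes were separated in either direction. The class I light chain gene B2m (0.20 ± 0.10, adjusted p = 0.176) and the heavy chain gene H2-K1 (0.24 ± 0.10, adjusted p = 0.111) were not called. Without doxycycline B2m was higher in F266A by 1.30, and its interaction was called (-1.10, adjusted p = 0.00545). Among antigen presentation genes with a promoter window, the interferon response element stood in 1 of 7 higher and 1 of 3 uncalled ones. Its share over all genes was 3.99%. The wider interferon response was mixed. Of 18 genes 5 were called higher and 7 lower, with a median of -0.03, and 3 were lower without WT +dox replicate 1, without F266A +dox replicate 1 or without F266A +dox replicate 2. Irf1, a transcription factor induced by interferon gamma, read 8.74 and 8.60 against 9.34 and 9.25 (0.63 ± 0.09), whereas Irf8 (-0.90 ± 0.08, its F266A mean under the minimum) and Xaf1 (-0.75 ± 0.10) were lower.

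Imprinted genes, expressed from 1 parental allele, were often higher. Of 23 measured 14 were called higher and 2 lower, with a median of 0.57. The 2 lower calls were lost without WT +dox replicate 2, without F266A +dox replicate 1 or without F266A +dox replicate 2. Igf2, the fetal growth factor, read 8.36 and 8.64 in WT +dox and 10.56 and 10.41 in F266A +dox, a 3.97-fold rise (1.99 ± 0.10, adjusted p = 4.5e-06). Peg3, a paternally expressed zinc-finger gene, went from 7.62 and 7.60 to 8.99 and 8.77 (1.27 ± 0.10), Mest from 7.93 and 7.81 to 9.19 and 9.05 (1.25 ± 0.08) and the cell cycle inhibitor gene Cdkn1c from 6.58 and 6.92 to 8.23 and 7.95 (1.34 ± 0.12). The F266A arrays were the higher ones in all of them, and 65.6% of all genes were separated in either direction. The noncoding RNAs of the Dlk1 and Meg3 cluster were higher as a group, Meg3 by 0.56 ± 0.09, Rian by 0.80 ± 0.11 and Mirg by 0.81 ± 0.10. The growth-restraining adaptor gene Grb10 (-0.26 ± 0.06) and the transporter gene Slc22a18 (-0.29 ± 0.09) were lower. The Slc22a18 call was lost under 13 alternatives, among them quantile normalisation, median centring and a trended prior. Igf2r, the receptor that degrades IGF2, was not called (0.03 ± 0.08). In the IGF pathway 8 of 15 genes were called higher and 1 lower. The binding protein gene Igfbp3 read 6.90 and 6.17 against 8.77 and 8.61 (2.16 ± 0.19) and the insulin receptor substrate gene Irs2 read 7.56 and 7.72 against 8.84 and 8.56 (1.07 ± 0.10).

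**Figure D3:**
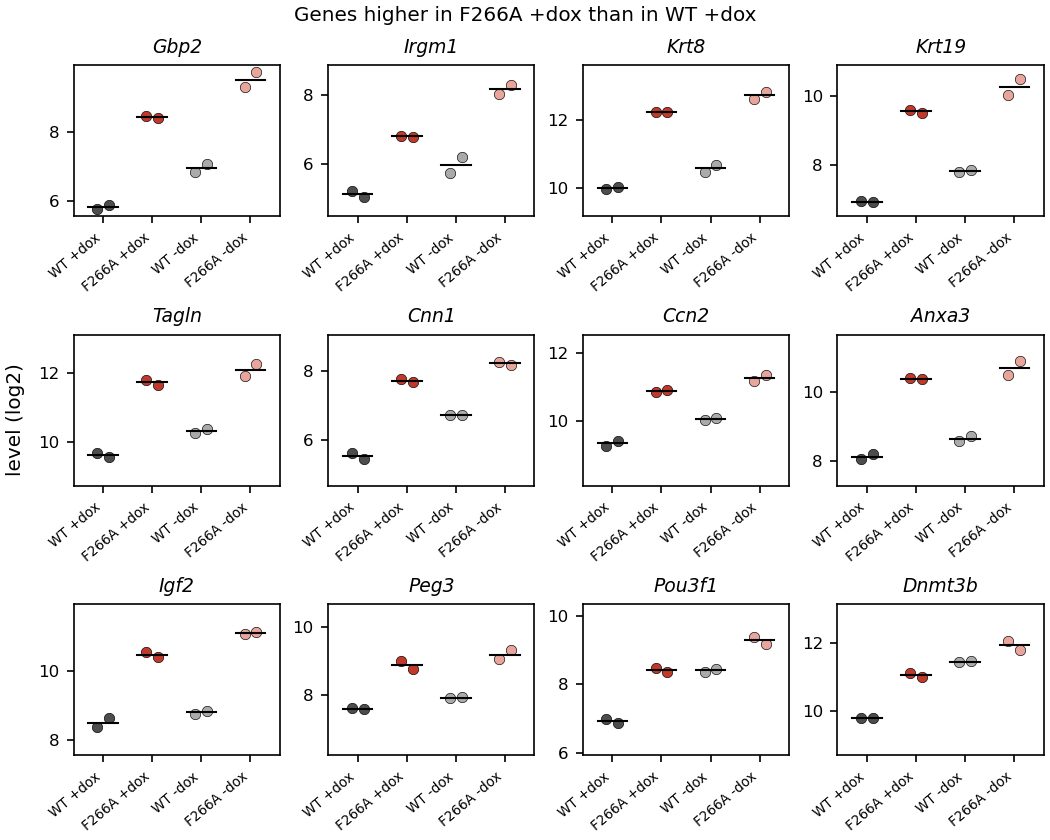
Log2 level of 12 genes that were higher in F266A +dox on each of the 8 arrays (dots), each panel on a vertical range of its own, with lines at group means. Gbp2 reads 5.76 and 5.87 in WT +dox against 8.47 and 8.40 in F266A +dox, and the F266A dots lie above the WT dots in each panel with doxycycline.

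Genes of growth factor signalling were also higher. Of 18 immediate early genes 11 rose and 2 fell, and of 19 genes of ERK feedback and ETS factors 12 were higher and 1 lower (7 higher without F266A +dox replicate 1). Myc, the growth regulator, read 5.84 and 6.09 in WT +dox and 7.88 and 7.67 in F266A +dox (1.81 ± 0.10, adjusted p = 6.48e-06). Jun, an AP-1 subunit, went from 5.85 and 6.30 to 7.35 and 7.14 (1.17 ± 0.14), and Phlda1 from 8.12 and 8.13 to 9.41 and 9.35 (1.25 ± 0.10). The ERK phosphatase gene Dusp6 was higher by 0.77 ± 0.10, while Fgf4, the autocrine ERK ligand of ESCs, was lower (10.43 and 10.46 against 9.95 and 9.92, -0.51 ± 0.07). Of 17 BMP pathway genes 9 were higher and 2 lower (4 higher without F266A +dox replicate 1). Their targets Id3 (6.77 and 6.85 against 8.98 and 8.90, 2.13 ± 0.07), Id1 (1.13 ± 0.08) and Id2 (1.03 ± 0.07) rose, whereas Id4 fell (-0.68 ± 0.12). Of 19 measured genes whose mRNAs bind WDR5 and which are tied to ESC pluripotency, 10 were called higher and 9 were not called (median 0.20), and 6 were higher without F266A +dox replicate 1, with Myc, Folr1 (0.86 ± 0.09) and Bmp4 (0.79 ± 0.08) highest.

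Stress genes under the transcription factor ATF4, which is made when translation slows, were lower. Of 18 measured regulators of the ATF4 and CHOP response 11 were called lower and 1 higher, with a median of -0.31. Nupr1, a stress-induced chromatin protein, read 10.91 and 10.79 in WT +dox and 8.30 and 8.26 in F266A +dox, the deepest fall of the 11940 genes (-2.57 ± 0.07, adjusted p = 2.95e-07). Jdp2, an AP-1 repressor, went from 9.30 and 9.39 to 7.87 and 7.83 (-1.49 ± 0.08), and Chac1, which degrades glutathione, from 9.49 and 9.45 to 8.07 and 7.92 (-1.48 ± 0.09). Ddit3, which encodes CHOP, read 8.93 and 8.78 against 7.72 and 7.60 (-1.19 ± 0.08), and Trib3, a pseudokinase induced by it, 9.46 and 9.56 against 8.56 and 8.39 (-1.03 ± 0.09). The F266A arrays were the lower ones in each, and a separation in either direction held for 65.6% of all genes. The Atf4 mRNA itself was lower, at 11.16 and 11.22 against 10.59 and 10.56 (-0.62 ± 0.08), as were Cebpb (-0.42 ± 0.07) and Atf5 (-0.31 ± 0.07), though Atf5 not without WT +dox replicate 1 or without F266A +dox replicate 2. Atf3 was the member that rose (0.80 ± 0.08), and the upstream kinase genes Eif2ak3 (0.08 ± 0.07) and Eif2ak4 (-0.03 ± 0.07) were not called. The composite element TGATGNAA stood in the window of 5 of the 10 lower genes that have one, among them the 3 shown above, in that of Atf3 and in none of the windows of the 6 uncalled genes, against 4.51% of all genes.

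Genes of amino acid metabolism, many of them targets of ATF4, were lower by small steps. Of 17 enzymes of amino acid synthesis and one-carbon metabolism 10 were lower and 2 higher (median -0.25), of 16 amino acid transporters 6 were lower and 2 higher (median -0.12) and of 19 cytosolic aminoacyl-tRNA synthetases 8 were lower and 11 were not called (median -0.17). Without F266A +dox replicate 2 the enzymes lower were 5 and the synthetases 4, and without WT +dox replicate 1 the synthetases were also 4. The 2 higher enzymes were not called without WT +dox replicate 2, without F266A +dox replicate 1 or without F266A +dox replicate 2. The alanine aminotransferase gene Gpt2 read 9.24 and 9.28 against 8.23 and 8.09 (-1.10 ± 0.08, adjusted p = 1.59e-05), and the serine synthesis gene Psph 10.72 and 10.71 against 10.11 and 10.05 (-0.64 ± 0.06). Asns, asparagine synthetase, read 13.06 and 13.06 against 12.54 and 12.54 (-0.52 ± 0.06). Duplicates of these genes differed by far less than the groups. TGATGNAA stood in the windows of 2 of the 17 enzymes, both among the 10 lower ones. Among synthetases with a window it stood in 3 of 5 lower and 2 of 7 uncalled ones, against 4.51% of all genes. Genes of lysosomes and autophagy were 14 lower and 1 higher of 25 (median -0.23), a count that was 6 without F266A +dox replicate 2. The lysosomal galactosidase gene Glb1 read 9.87 and 9.78 against 8.98 and 8.85 (-0.91 ± 0.08). Nfe2l2, which encodes the redox factor NRF2, was lower too (8.90 and 9.01 against 8.25 and 8.11, -0.77 ± 0.09), with 9 of 22 redox genes lower and 3 higher.

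Genes of the meiotic chromosome axis, which ESCs express outside meiosis, were lower in part. Of 10 measured 5 were called lower and 5 were not called (median -0.31), and 3 were lower without F266A +dox replicate 2. Sycp3, a component of the axis, read 8.42 and 8.63 in WT +dox and 7.22 and 7.11 in F266A +dox (-1.36 ± 0.10, adjusted p = 2.19e-05), and the meiotic cohesin gene Stag3 read 8.49 and 8.47 against 7.45 and 7.35 (-1.08 ± 0.08). Dmc1, the meiotic recombinase gene, was lower by a smaller step (-0.72 ± 0.08). Syce2, the member with the highest level, was not called (11.39 and 11.40 against 11.31 and 11.32). TCCCGC stood in the windows of 8 of the 10, the 5 lower genes and 3 of the uncalled ones, against 22% of all genes. Among the 12 lowest differences that lie outside these groups were those of 2410003I16Rik (7.39 and 7.76 against 5.70 and 5.29, -2.08 ± 0.14), whose F266A mean was under the minimum, the glycosyltransferase gene B4galnt2 (7.77 and 7.53 against 5.82 and 5.91, -1.79 ± 0.13) and the calretinin gene Calb2 (8.01 and 7.82 against 6.37 and 6.10, -1.68 ± 0.10).

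**Figure D4:**
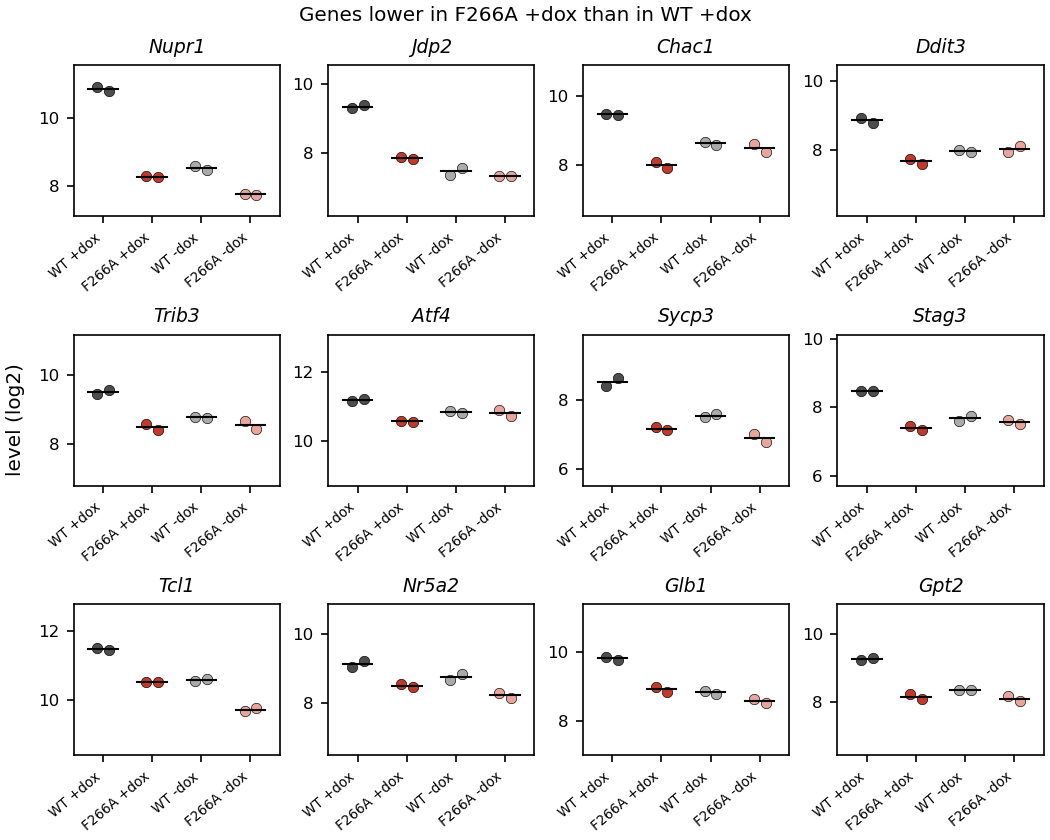
Log2 level of 12 genes that were lower in F266A +dox on each of the 8 arrays (dots), each panel on a vertical range of its own, with lines at group means. Nupr1 reads 10.91 and 10.79 in WT +dox against 8.30 and 8.26 in F266A +dox, and the uninduced lines of Jdp2 and Chac1 differ by -0.13 and -0.12.

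Whether the lines differed in the same way without induction was read from the 4 uninduced arrays. The sizes of these differences use no array of the comparison above. Their calls are not independent of that comparison, because the fit to all arrays gave both the same spread per gene. A fit to the uninduced groups alone called 2721 genes. In F266A -dox minus WT -dox, the calls were 1676 higher (14%) and 1601 lower (13.4%). Of the 179 genes that were at least 2-fold higher with doxycycline, 167 were also called higher without it, 2 were called lower and 10 were not called, and their median was 1.32 with and 1.21 without. Of the 55 that were at least 2-fold lower, 37 were called lower without doxycycline and 18 were not called, and the medians were -1.17 and -0.43. These genes were picked on the induced arrays, which by itself favours a larger value there. Krt19 differed by 2.64 with and 2.44 without doxycycline, Gbp2 by 2.62 and 2.57, Igf2 by 1.99 and 2.31 and Tagln by 2.11 and 1.80. The count of 3277 genes called without doxycycline was 2141 when F266A -dox replicate 2 was left out, 2054 for WT -dox replicate 1 and 1944 for WT -dox replicate 2.

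The interaction of line and doxycycline tests whether the line difference changed with induction, and 615 genes were called (5.15%), 351 higher and 264 lower. The count was 174 without F266A +dox replicate 1 and 270 without WT +dox replicate 1, 240 without F266A +dox replicate 2, 261 without WT -dox replicate 2, 302 without WT -dox replicate 1, 305 without F266A -dox replicate 2 and 379 without WT +dox replicate 2. It was called for 38 of the 179 genes at least 2-fold higher and for 40 of the 55 at least 2-fold lower, though the choice of genes shares the induced arrays with this test. Among genes called both for the interaction and with doxycycline, Nupr1 had the lowest interaction (-1.81 ± 0.10, adjusted p = 0.000105). Its uninduced arrays read 8.58 and 8.48 in WT and 7.79 and 7.75 in F266A, both lines under the 10.91 and 10.79 of WT +dox. Jdp2 (-1.36 ± 0.11) and Chac1 (-1.36 ± 0.13) were called alike, and without doxycycline they differed between the lines by -0.13 and -0.12. Of the 18 ATF4 and CHOP regulators 8 were called for the interaction, and the list's median was -0.31 with and 0.02 without doxycycline.

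Genes induced by low oxygen had interactions of the opposite sign. Of 20 measured 7 were called higher and 2 lower with doxycycline, against 2 and 11 without, and 9 were called for the interaction. Bnip3, a mitophagy receptor, read 9.03 and 9.18 in WT +dox and 9.71 and 9.53 in F266A +dox (0.51 ± 0.10), but was lower in F266A without doxycycline (-1.06), an interaction of 1.58 (adjusted p = 0.000833). Egln3, a prolyl hydroxylase of the oxygen-sensing pathway, behaved alike, with 0.54 ± 0.07 with and -1.16 without doxycycline (interaction 1.69 ± 0.10). Slc2a1, the glucose transporter gene, read 10.53 and 10.44 against 11.84 and 11.72 (1.30 ± 0.09) and differed by 0.37 without doxycycline (interaction 0.93). A2m, the protease inhibitor alpha-2-macroglobulin, had the highest interaction (2.19 ± 0.14) among genes called both for it and with doxycycline. It differed by 0.68 ± 0.10 with doxycycline, while the uninduced arrays read 7.50 and 7.65 in WT against 5.94 and 6.20 in F266A. Among primed factors 6 of 18 were called for the interaction, and Otx2 (0.84) was lower in F266A without doxycycline (-0.36).

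**Figure D5:**
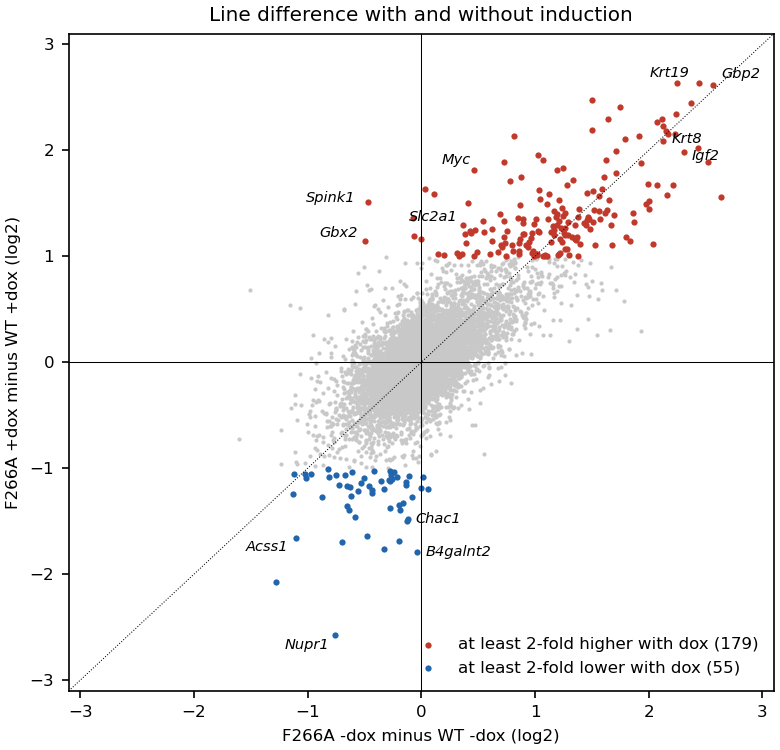
Difference between the lines with doxycycline (vertical, log2) against the difference without it (horizontal, log2) for each of the 11940 genes, with the diagonal dotted. The 179 genes at least 2-fold higher with doxycycline (red) include 175 right of the vertical axis, with medians of 1.32 and 1.21, and the 55 at least 2-fold lower (blue) are mostly smaller without it, with medians of -1.17 and -0.43.

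Further single genes were prominent among the rises. Lrp2, the endocytic receptor megalin, read 6.09 and 6.02 in WT +dox and 8.57 and 8.36 in F266A +dox (2.41 ± 0.09, adjusted p = 7.69e-07). It is a marker of primitive endoderm. The summed linear level of the other 15 such markers was 685.6 and 648.6 in WT +dox and 730.7 and 736.2 in F266A +dox. Of these 15, 5 and 4 exceeded the minimum in WT +dox and 6 and 7 in F266A +dox. Dab2 was called higher (1.01 ± 0.16), while Gata4, Sox7 and Foxa2 were under the minimum on all 4 arrays. The part of such cells in this rise was not tested. Fndc3c1 (6.63 and 6.11 against 8.86 and 8.82, 2.47 ± 0.15) and the heparan sulfate sulfotransferase gene Hs6st2 (5.25 and 5.63 against 7.77 and 7.69, 2.29 ± 0.15, the WT mean under the minimum) lie on the X chromosome, as does Amot. The serine protease gene Prss23 read 5.47 and 5.78 against 7.98 and 8.16 (2.44 ± 0.18), its WT mean also under the minimum. Lgals1, the lectin galectin 1, was higher by 1.37 ± 0.09. In basement membranes the collagen IV genes Col4a1 (7.41 and 7.44 against 8.87 and 8.85, 1.44 ± 0.09) and Col4a2 (1.58 ± 0.12), neighbours on chromosome 8, rose, while the laminin gene Lama1 (-0.75 ± 0.10) and the nidogen gene Nid1 (-0.58 ± 0.07) fell, 4 of 17 genes in each direction.

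Further signalling and metabolic groups were mixed. Of 18 WNT genes 7 were higher and 1 lower (3 higher without F266A +dox replicate 1). The receptor gene Fzd2 went from 6.78 and 6.74 to 8.36 and 8.15 (1.49 ± 0.09), whereas the secreted WNT inhibitor gene Sfrp1 went from 9.44 and 9.47 to 8.46 and 8.43 (-1.01 ± 0.07). Of 10 Hedgehog genes 5 were lower and 3 higher, the receptor and target gene Ptch1 reading 11.04 and 11.13 against 10.65 and 10.49 (-0.51 ± 0.09) and the lower count being 3 without WT +dox replicate 2, without F266A +dox replicate 1 or without F266A +dox replicate 2. Ccnd2, a D-type cyclin gene, read 5.27 and 5.28 against 6.81 and 6.74 (1.50 ± 0.08, its WT mean under the minimum), and Pim2, a survival kinase gene, 7.44 and 7.25 against 9.32 and 9.29 (1.96 ± 0.10). In glycolysis 6 of 17 genes were higher and 5 lower (2 higher without F266A +dox replicate 1), with the lactate dehydrogenase genes moving apart, Ldha by 0.48 ± 0.08 and Ldhb by -0.88 ± 0.10. Of 21 genes of the TCA cycle 8 were lower and 1 higher, and 4 were lower without WT +dox replicate 1.

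Long noncoding RNAs went both ways. They are among the classes of RNA, mRNAs included, that the study reports to bind WT WDR5 but not F266A. Of 19 measured, 5 were higher and 7 lower (3 higher without F266A +dox replicate 1). Snhg6 read 12.49 and 12.52 against 11.92 and 11.88 (-0.61 ± 0.07), and the other snoRNA host genes Snhg12 (-0.57 ± 0.07), Snhg8 (-0.48 ± 0.07) and Gas5 (-0.34 ± 0.07) were lower too, as was Neat1 (-0.38 ± 0.08), the scaffold of paraspeckles. The probe sets of Gas5 did not agree, with differences of -0.74, -0.64, -0.12 and 0.14. The higher genes included Meg3, Rian and Mirg described above and Ftx (0.70 ± 0.14), whose call was lost without F266A +dox replicate 1.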

How the data were processed

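Gene expression was measured on 8 Affymetrix mouse arrays, and the authors deposited log2 expression values per probe set, background-corrected, quantile normalised and summarised by RMA (justRMA, R 2.11.1, per the labels). The study's SAM test was not run here. Probe sets with exactly 1 symbol that exceeded 50 on the linear scale (5.64 in log2) on at least 1 array were averaged per gene, giving 11940 genes, and the 932 probe sets with several symbols and 9160 with none were left out of the gene table. Symbols and chromosomes followed RefSeq (GRCm38.p6), where 11901 of the 11940 genes matched.

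A model with 1 term per group was fitted to all 8 arrays with limma 3.58.1 in R 4.3.3, with Benjamini-Hochberg adjustment over all genes, and was tested on simulated data. The contrasts were F266A +dox minus WT +dox, the same without doxycycline, and their difference, called the interaction. Groups came from the sample titles. P-values measure the spread between duplicates. Named genes were Wdr5, members of the gene lists, and the genes with the largest called differences and interactions. Genes picked by difference had to change by 2-fold or more with no overlap between the arrays of the groups. Their separation was thus a condition of the choice and not a result. The members and lists were chosen with earlier results of these data known.

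Alternatives were no minimum or a minimum of 100, the brightest probe set of a gene or each probe set on its own, quantile normalisation, median centring, a fit restricted to the compared groups, a replicate block, a trended and robust prior, array weights and each array left out. A crossed replicate block and a fit without genes of chromosomes 6, 8 and X were added after the data were seen.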

Additional observations from a re-analysis of the deposited data

Results flagged for a closer look

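Among the genes named above, these differed between the lines by an amount that changed with doxycycline, as called by the limma interaction test over all genes. The value is the line difference with doxycycline minus that without it, in log2. Values above 0 were led by A2m 2.19, Egln3 1.69, Gbx2 1.63, Bnip3 1.58, Myc 1.35, Id3 1.31, Dnmt3l 1.13, Ccnd2 1.10 and Setd1b 1.08. Smaller values of the same sign were Fndc3c1 0.98, Pim2 0.93, Slc2a1 0.93, Zic5 0.87, Dnmt3a 0.85, Otx2 0.84, Pkp2 0.78, Dnmt3b 0.77 and Vim 0.71. Values of 0.69 or less were those of Cnn1 0.69, Nr0b1 0.68, Dppa2 0.68, Lrp2 0.67, Mest 0.64, Pou3f1 0.61, Prdm14 0.58, Ldha 0.57 and Dppa3 0.54. Values under 0 were led by Nupr1 -1.81, B4galnt2 -1.75, Calb2 -1.49, Chac1 -1.36, Jdp2 -1.36, Ddit3 -1.25, B2m -1.10, Gbp3 -1.03 and Stag3 -0.97. Smaller values of the same sign were Irf8 -0.85, Gpt2 -0.84, Trib3 -0.80, Ldhb -0.72, Sycp3 -0.70, Glb1 -0.66, Cebpb -0.64, Snhg12 -0.61, Atf4 -0.57 and Atf5 -0.50. These calls used arrays that the choice of the largest differences also used.

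Probe sets that carry no single gene symbol lie outside the comparisons above. Of 2377 that passed the expression minimum, 321 were called in F266A +dox minus WT +dox, and 32 of them changed by 2-fold or more, 29 higher and 3 lower.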

How the results depend on the processing

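Leaving out 1 array at a time gave 1932 to 3514 called genes in F266A +dox minus WT +dox against 3384 with all arrays, 220 to 260 against 234 at 2-fold or more, 1944 to 3219 against 3277 without doxycycline and 174 to 688 against 615 for the interaction. Testing each of 20046 probe sets on its own called 411 of them at 2-fold or more, a count of probe sets and not of genes. The interaction count was 290 with no minimum, where more genes are tested, and 1110 with a trended and robust prior, whose cause was not tested. The other alternatives stayed within 1.5 times of these counts. Without genes of chromosomes 6, 8 and X, which leaves fewer genes to test, 2806 genes were called.

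The labels number the duplicates of each group. Correlations of same-numbered deviations were 0.129 and 0.165 within a line and ran from -0.176 to -0.111 between lines. Whether the arrays are paired was not settled by these values. With the replicate block 3105 genes were called in the main comparison, 234 at 2-fold or more, 2978 without doxycycline and 451 for the interaction. With the numbers of F266A +dox alone crossed, 3193 were called in the main comparison. A block with the numbers of both F266A groups crossed was not run.

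Of 169 named genes 152 were called, and 128 of these calls held under each alternative run. The other 24 were lost under at least 1, most of them in fits without 1 array, and no named gene turned direction. Arrays hold no read depth, and 2 per group limit the precision.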
